A study of Homo sapiens with 17 samples.

Results

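Of 120061 small RNA alignments of 18 nt or longer listed in each of the 3 tables of 31 d, 20005 had a ratio of 0 in all 3, which is 16.7% of those listed. An alignment is 1 position, strand and length on the human build hg19. The ratio sets the value of 1 library against that of its partner library, so 0 means that the numerator library had no value there while the denominator library had one. These 20005, called zero-ratio alignments here, were chosen by those 31 d ratios, and their values at 31 d are therefore description. The 100056 other alignments of the same length and listing, above 0 in 1 or more of the 3 tables, served for comparison, and 44463 of them were above 0 in all 3.

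The libraries came from K562, a human erythroleukemic cell line, and all carried an inducible short hairpin RNA against Drosha. Cells were kept with 1 µg/mL doxycycline (Dox) or with water in its place for 3, 13 or 31 d. Each of the 8 tables joins 1 Dox and 1 water library of the same day and replicate number: replicates 1 and 3 at 3 d, and replicates 1 to 3 at 13 d and at 31 d. The sources used here do not say which of the pair is the numerator, so a ratio of 0 carries no Dox direction below. They also do not say whether the line was a clone or a pool, and the 1 untreated library was not analysed here.

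Drosha cuts hairpins out of primary microRNA transcripts in the nucleus, and Dicer then cuts each hairpin into a short duplex, of which a single strand is usually kept. One microRNA is sequenced as a stack of fragments that share a 5′ end and differ by a few bases at the 3′ end. Fragments of transfer RNA, ribosomal RNA, messenger RNA and other transcripts also enter small RNA libraries, and most of these need no Drosha.

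The tables listed 871027 to 3428554 alignments each, 14415896 distinct alignments in all, and the ratio was 0 in 73.2% to 93.1% of a table's alignments. Read numbers per alignment were not used, because the columns that hold them name no library. The depth behind each 0 is therefore unknown here, and whether few reads alone give the zeros was not tested. How many tables list an alignment was used as a rough stand-in for depth, a choice made after the data were seen. Positions carry no gene or microRNA name, since the annotation at hand is of another build, and for the same reason the level of Drosha and the microRNAs that mark K562 were not checked.

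Zero-ratio alignments were mostly short. There were 7790 of 18 nt and 4810 of 19 nt, together 62.98% of the set, against 51.5% of the other alignments. Lengths of 22 to 24 nt, those usual for microRNAs, made up 14.1% against 15.04%, and 25 nt or longer 5.57% against 12.4%. Per the labels, RNA of 20 to 40 nt was cut from a gel, so the most frequent lengths lie below that range.

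Seen per length, the share of listed alignments at 0 in all 3 tables of 31 d was 20.6% at 18 nt, 14.0% at 20 nt, 18.2% at 22 nt, 14.4% at 23 nt and 4.63% at 30 nt. It did not fall evenly, as 22 nt stood above both of its neighbours named here. At the edges of the selection, 8052 alignments of 17 nt were also at 0 in all 3 tables, and 26289 of 18 nt or longer were at 0 in just 2 of the 3. The median ratio of the latter in the remaining table was 0.656, and 64.99% of them were below 1 there.

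**Figure D1:**
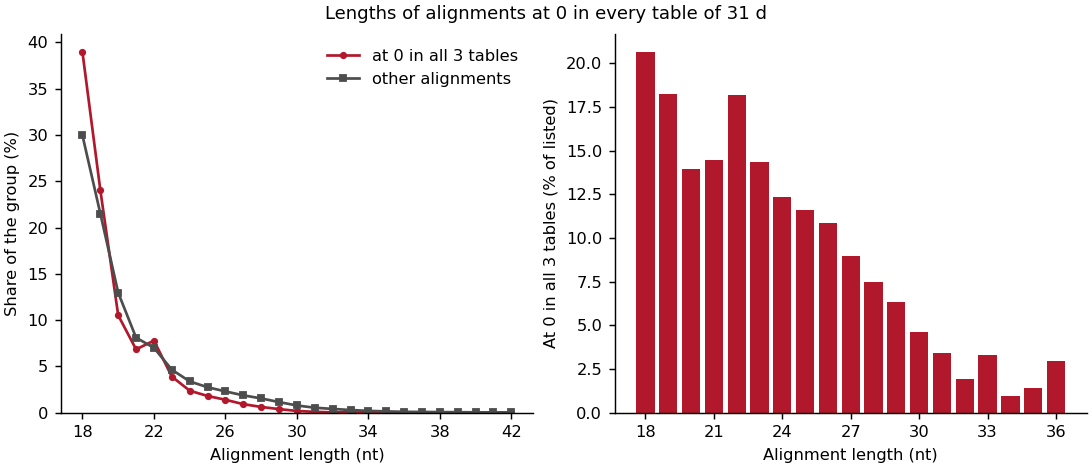
Left, length (nt, horizontal axis) of zero-ratio alignments (circles) and other alignments (squares) as a share of each group (percent, vertical axis). Right, share of listed alignments of each length that were at 0 in all 3 tables of 31 d, for lengths with at least 100 listed: 20.6% at 18 nt, 18.2% at 22 nt and 4.63% at 30 nt.

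Zero-ratio alignments occurred on all chromosomes and both strands, with 10037 on the plus strand and 9968 on the minus strand, but were not evenly spaced. Among autosomes their share of listed alignments ran from 19.4% on chromosome 4 to 12.8% on chromosome 11. It was 10.96% of those mapped to chromosome Y, where 108 of 985 were at 0. The treatment of reads with several positions is not known here, so a mapped position need not be the origin of the RNA. Zero-ratio alignments formed 17076 regions of overlapping alignments on the same strand, of which 15290 held a single one and 496 held 3 or more. These 496 held 2135 zero-ratio alignments, with a maximum of 24. The set had 19278 distinct 5′ ends, and 59 of these were shared by 3 or more zero-ratio alignments. Regions and 5′ ends were not counted in this way for the other alignments. Whether shared 5′ ends were fewer than among those is therefore not known here.

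Most zero-ratio alignments overlapped no other alignment listed in all 3 tables of 31 d, the only neighbours counted here. No other alignment of any length listed in the 3 tables of 31 d overlapped 10556 of the zero-ratio alignments (52.8%), against 29.5% of the others. An alignment above 0 in all 3 tables overlapped 3444 (17.2%), against 52.4% of the others. The part of depth in these differences was not tested.

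Of the 5 largest groups of overlapping zero-ratio alignments on the same strand, 3 lay inside busy regions. The largest, chr5:79947284-79947415(-), held 24 of 19 to 32 nt among 309 listed alignments of any length, of which 122 were above 0 in all 3 tables. The groups at chr11:10531161-10531285(-) with 20 and chr13:110076475-110076583(-) with 19 lay among 313 and 310 listed alignments, 124 and 131 of them above 0 in all 3 tables. In each of these 3 regions, alignments of any length above 0 in all 3 tables outnumbered the zero-ratio alignments, which are of 18 nt or longer. Most alignments listed there were nevertheless not above 0 in all 3 tables.

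The remaining 2 of the 5 had few neighbours above 0 in all 3 tables. At chr5:134262522-134262610(-), with 22, they were 6 of 79, and at chr2:3633094-3633191(+), with 19, they were 1 of 38. In the chromosome 2 region the zeros recurred at 13 d, in 8 of 12, 16 of 16 and 15 of 17 listed zero-ratio alignments, whereas at 3 d 4 of 8 and 0 of 4 were at 0. In the chromosome 5 region just named, 1 of 5, 7 of 9 and 6 of 12 were at 0 at 13 d, and 4 of 12 and 7 of 16 at 3 d. The alignments of a region overlap and are not independent.

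To place them against hairpin-like stacks, alignments of 20 to 24 nt above 0 in all 8 tables were grouped by 5′ end, which gave 523 stacks and 62 loci with a pair of stacks spaced as the arms of a hairpin are. The zero-ratio alignments lay outside all stacks in 19531 cases (97.6%), in single stacks in 370, and in two-arm loci in 104 out of 2674 listed there. Those in two-arm loci and in single stacks had a median length of 23 nt, and those outside stacks 19 nt. As stacks were built from alignments above 0 in all 8 tables, no zero-ratio alignment could help to form one. Their scarcity in stacks is thus partly set by that choice and was not tested. Of all listed alignments, 16.7% were zero-ratio alignments, and the places of the others are not given here.

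Of the 62 two-arm loci, 32 held a zero-ratio alignment and 7 held 5 or more. The locus chr13:110076496-110076550(-) held 17 among 251 listed alignments. Some of the 7 held a larger part: chr8:41517960-41518023(-) 8 of 29, chr16:15005094-15005159(+) 7 of 22, chr13:92003010-92003074(+) 6 of 31, and chr7:99691192-99691253(-) 5 of 25. The last of the 7 held a smaller part, chr5:79947057-79947115(-) 5 of 147 and chr5:134259778-134259836(+) 5 of 197. Spacing of stacks does not show that a locus is a hairpin. The loci with 147, 197 and 251 listed alignments were far more crowded than the rest of the 7, with 22 to 31. Only some of the zero-ratio alignments in the 7 began at the 5′ end of a stack. They were 1 of 17, 3 of 8, 2 of 7, 1 of 6, 1 of 5, 0 of 5 and 0 of 5 in that order. Other small loci held 0, such as chr1:175937536-175937596(-) with 0 of 22, so no trend with size is shown.

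The tables of 3 d and 13 d played no part in the selection. They often did not list the zero-ratio alignments at all: 16.5% and 14.9% were listed at 3 d and 23.5%, 29.9% and 42.4% at 13 d (replicates in order of number), against 44.5%, 42.9%, 57.4%, 66.3% and 76.5% of the others. None of the 5 tables listed 6715 (33.6%), against 7.81% of the others, and all 5 listed 428 (2.14%), against 22.9%. Read the other way, 46.2% of the alignments listed in none of the 5 were at 0 throughout 31 d, 17.1% of those listed in 2 and 1.83% of those listed in all 5. The rule thus picked alignments that were seldom listed on other days.

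**Figure D2:**
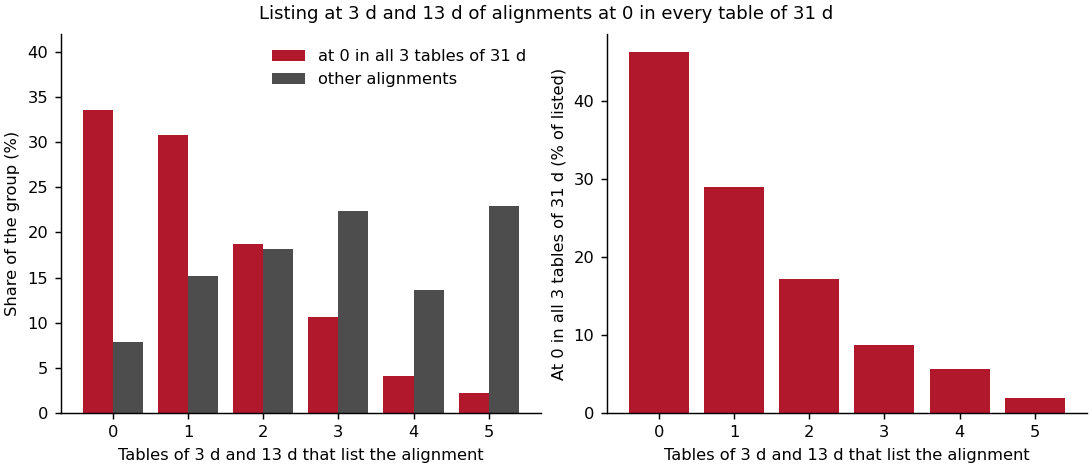
Left, number of the 5 tables of 3 d and 13 d that list an alignment (horizontal axis) as a share (percent, vertical axis) of the zero-ratio alignments and of the other alignments. Right, share of alignments at 0 in all 3 tables of 31 d at each number of tables, falling from 46.2% at 0 tables to 1.83% at 5.

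Because of this, shares at 0 are given beside those of other alignments of like listing, that is, the others weighted so that the remaining 4 tables of 3 d and 13 d list them as often as they list the zero-ratio alignments. At 13 d the ratio was 0 for 77.7% of 4694, 82.9% of 5990 and 84.0% of 8482 zero-ratio alignments listed in replicates 1, 2 and 3. Others of like listing were at 0 in 48.7%, 52.3% and 44.6%, and all listed alignments in 33.4%, 39.8% and 38%. The zeros of 31 d were therefore found again more often than in others listed as often.

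The difference from others of like listing was 28.99, 30.6 and 39.3 percentage points, a mean of 32.96 ± 5.56 (SD, n = 3 tables; exact two-sided sign-flip permutation p = 0.25, the smallest that 3 tables allow; adjusted p = 0.375 over 3 such tests). Without the weighting the mean was 48.7 points.

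At 3 d the difference was smaller. The ratio was 0 for 53.0% of 3305 zero-ratio alignments in replicate 1 and 38.7% of 2977 in replicate 3, against 42.8% and 21.8% of others of like listing, and 23.9% and 11.9% of all listed. The mean difference was 13.5 ± 4.69 percentage points (SD, n = 2 tables; exact two-sided sign-flip permutation p = 0.5, the smallest that 2 tables allow; adjusted p = 0.5), and 29.98 without the weighting. Over both days the share was higher in 5 of 5 tables, by 25.2 ± 11.6 points (SD, n = 5 tables; exact two-sided permutation p = 0.063, again the smallest possible; adjusted p = 0.188). No such test could reach 0.05, and whether the days differ was not tested.

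**Figure D3:**
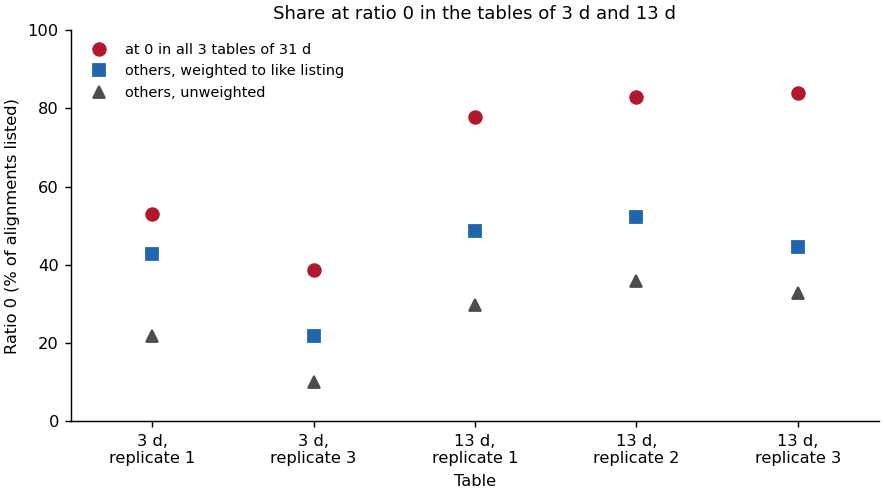
Share of listed alignments with ratio 0 (percent, vertical axis) in each table of 3 d and 13 d (horizontal axis): zero-ratio alignments (circles), others weighted to like listing (squares) and others unweighted (triangles). The circles lie above the squares in all 5 tables, by 10.2 to 39.3 percentage points.

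In both groups the share at 0 fell the more tables listed an alignment. In replicate 3 of 13 d it fell from 88.5% of zero-ratio alignments listed in no other table of 3 d and 13 d to 72.9% of those listed in all 4 others, and from 56.6% to 16.7% of the other alignments. In replicate 1 of 13 d it fell from 91.5% to 52.6%, against 71.6% to 9.25%. At 3 d it fell from 76.3% to 20.6% in replicate 1 and from 55.1% to 12.6% in replicate 3, against 65.5% to 6.58% and 38.3% to 2.94% of the others. Zero-ratio alignments had the higher share at every number of tables on both days.

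**Figure D4:**
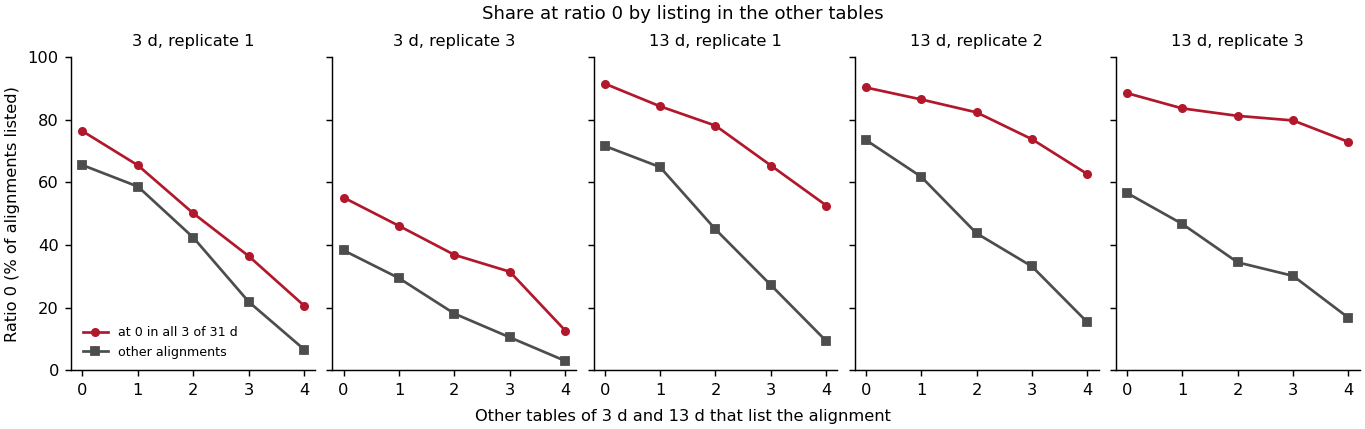
Share of listed alignments with ratio 0 (percent, vertical axis) in each table of 3 d and 13 d, by how many of the other 4 tables of these days list the alignment (horizontal axis), for zero-ratio alignments (circles) and other alignments (squares). In replicate 3 of 13 d the circles fall from 88.5% to 72.9% and the squares from 56.6% to 16.7%.

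The excess at 13 d was present at all lengths. Over 4 length classes and 3 tables the difference from others of like listing ran from 24.2 points (25 nt or longer, replicate 1) to 42.1 points (22 to 24 nt, replicate 3). At 3 d it was uneven between the tables: in replicate 1 it was 19.1 points for 18 to 19 nt but 4.96, 3.15 and 0.091 points for 20 to 21 nt, 22 to 24 nt and 25 nt or longer. In replicate 3 it was 18.6, 16.5, 11.5 and 21.9 points for the same classes. From 20 nt upward, the 3 d excess was thus mostly that of replicate 3.

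Zero-ratio alignments that overlapped none of the neighbours counted above were more often at 0 than those that overlapped one. The excess over others was of like size in both. In replicate 2 of 13 d, 87.6% of 2566 without an overlapping neighbour and 79.3% of 3424 with one were at 0, which was 28.7 and 31.7 points above others of like listing and like neighbours. In replicate 1 of 3 d the shares were 60.8% and 49.2%, at 10.07 and 9.93 points above. By place, 62.96%, 68.7% and 78.9% of those listed in two-arm loci were at 0 in replicates 1, 2 and 3 of 13 d, on 54, 67 and 76 alignments, against 78.6%, 83.7% and 84.4% of those outside stacks. At 3 d 12 of 46 (26.1%) and 12 of 49 (24.5%) in two-arm loci were at 0, against 54.8% and 40.1% of those outside stacks, and 23.9% and 11.9% of all listed alignments. In replicate 1 the share in two-arm loci was near that of all listed.

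Agreement between the tables of 31 d was described by leaving each out in turn. Alignments at 0 in both remaining tables were at 0 in the left-out one in 60.8%, 70.7% and 79.7% of cases for replicates 1, 2 and 3. Those above 0 in both remaining tables, listed as often at 3 d and 13 d, were at 0 in 40.9%, 26.5% and 19.9%, and all listed alignments in 39.5%, 40.5% and 38.2%. The difference was 19.9, 44.2 and 59.8 points, a mean of 41.3 ± 20.1 (SD, n = 3 tables). Replicate 1 followed the others least. As the 31 d ratios chose the set, these values are description and were not tested.

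The replicates also differed for alignments listed on every earlier day. Of those listed in all 5 tables and at 0 in both other tables of 31 d, 428 of 1977 (21.6%) were at 0 in replicate 1, 428 of 602 (71.1%) in replicate 2 and 428 of 722 (59.3%) in replicate 3. Alignments listed in all 5 and above 0 in both others were at 0 in 2.88%, 17.4% and 3.89%. Replicate 1 of 31 d therefore removed most of the often-listed alignments that were at 0 in replicates 2 and 3.

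Complete recurrence was more frequent at 13 d than at 3 d in these tables, a difference between days that was not tested. All 3 tables of 13 d listed 2037 zero-ratio alignments: 1057 (51.9%) were at 0 in all 3, 872 in some, and 108 (5.30%) in none. The background of listed alignments at 0 in all 3 was 9.74%. Both tables of 3 d listed 1363, of which 237 (17.4%, background 4.01%) were at 0 in both and 569 (41.7%) were above 0 in both.

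Of the 428 listed in all 5 tables, 5 (1.17%) were at 0 in each, and so in all 8 tables, and 39 (9.11%) were above 0 in each. Of the 22921 others listed in all 5 tables, 25 (0.109%) were at 0 in each and 16033 (69.9%) above 0 in each. As a share of the whole set the fragments at 0 in all 5 tables made up 0.025% in both groups. However, all 5 tables listed only 2.14% of the zero-ratio alignments, against 22.9% of the others. The 5, named after their values were seen, were chr3:180690164-180690185(-) of 22 nt, chr13:92002984-92003009(+) of 26 nt, chr13:109790082-109790099(-) of 18 nt, chr16:59713660-59713679(+) of 20 nt and chr17:17732211-17732231(-) of 21 nt. The second of these ended directly before the start of a two-arm locus named above, chr13:92003010-92003074(+). They lay on 4 chromosomes and had 5 different lengths.

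In both groups, more alignments were above 0 at 3 d and at 0 at 13 d than the other way. There were 83 zero-ratio alignments at 0 in all of 13 d and above 0 in both tables of 3 d, which is 0.415% of the set and 19.4% of the 428, against 434 of the others, 0.434% of them and 1.89% of those listed in all 5 tables. The reverse pattern was held by 1 zero-ratio alignment and by 21 others. The former was chr13:110076492-110076517(-), of 26 nt, at 0 in both authors' deposited tables of 3 d and at 11.4, 1.67 and 0.894 in those of 13 d. It lay in the chromosome 13 region of 19 zero-ratio alignments.

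Zero-ratio alignments that were above 0 at an earlier day had a median ratio below that of the others in 4 of 5 tables, a difference that was not tested. At 13 d the median of such ratios was 1.08, 0.781 and 0.596 in replicates 1, 2 and 3, against 1.17, 0.833 and 0.536 for the others. At 3 d it was 1.23 and 1.01 in replicates 1 and 3, against 1.54 and 1.69. Ratios below 1 made up 44.4%, 55.1% and 78.2% of those above 0 at 13 d, against 40.3%, 53.7% and 67.1% for the others. At 3 d they made up 37.4% and 20.99%, against 38.3% and 33.04%. At 3 d the zero-ratio alignments thus had the lower median and yet the smaller share below 1. In replicate 3 of 3 d their lower quartile and median were both 1.01, a repeated value just above 1. Their upper quartile in replicate 3 of 13 d was 0.894, just below 1. The shares below 1 therefore depend in part on which side of 1 such values fell.

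The few whose ratio exceeded 0 in all tables of a day could be tested on the log2 scale with limma, in which each day's mean log2 ratio is compared with 0. Only 108 of the 20005 qualified at 13 d, so they do not stand for the rest. Their median log2 ratio was -0.21, and 65 of the 108 were below 0. The median was 0.19 for all 69772 alignments tested, which are of any length and so an unlike background. Of the 108, 2 were called lower and 0 higher at limma's adjusted p of 0.05, and 8 had an unadjusted p below it. Among all tested, 3.82% were called lower and 4.91% higher.

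The first of the 2 was chr8:144815255-144815280(-), of 26 nt, with ratios of 0.246, 0.0852 and 0.0436 in the authors' deposited tables of 13 d. Its mean log2 ratio was -3.37 (limma SE 1.11, adjusted p = 0.0361). At 3 d its ratios were 21.8 and 2.03 in the authors' deposited tables. All 3 ratios of 13 d were below 1 and both of 3 d above 1, so the days did not overlap.

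It shared its region with 4 other zero-ratio alignments of 19 to 23 nt. The 23 nt alignment chr8:144815257-144815279(-) had ratios of 0.131, 0.0999 and 0.261 at 13 d and of 6.41 and 2.53 at 3 d in the authors' deposited tables. Next to it, the 22 nt fragment chr8:144815257-144815278(-) was at 0, 0.288 and 0 at 13 d and at 11.1 and 3.04 at 3 d in the authors' deposited tables. These 2 were likewise above 1 in both tables of 3 d and below 1 in every table of 13 d. The 19 nt alignments of the region were chr8:144815260-144815278(-), at 1.08 in its single table of 13 d, and chr8:144815261-144815279(-), at 0 in all 3 of 13 d and listed in none of 3 d, in the authors' deposited tables.

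The other alignment called lower was chr7:99691192-99691214(-), of 23 nt, in the two-arm locus on chromosome 7, with ratios of 0.197, 0.0403 and 0.122 in the authors' deposited tables of 13 d. Its mean was -3.34 (limma SE 1.11, adjusted p = 0.0376). At 3 d it was listed in replicate 1 alone, at 14.7 in the authors' deposited table. Neither of the 2 was called when any 1 table of 13 d or replicate 1 of 31 d was left out of the fit, which gave 0 called in each case.

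The next lowest means at 13 d, -2.73 for chr8:144815257-144815279(-), -2.68 for chr6:27204936-27204954(-) and -2.52 for chr1:218924122-218924142(+), were not called (limma adjusted p from 0.0949 to 0.127). The highest means, 2.08 for chr2:122288770-122288791(+), 1.75 for chr11:10530805-10530830(-), 1.74 for chr7:153542275-153542293(-), 1.66 for chr11:10530805-10530836(-) and 1.59 for chr1:121126675-121126693(-), were not called either (limma adjusted p from 0.219 to 0.371).

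The tables of 13 d differed for some of these. The ratio of chr11:10530805-10530836(-), of 32 nt, was 21.6, 13.1 and 0.112 in the authors' deposited tables of 13 d, with replicate 3 far below the others, and 2.46 and 1.35 at 3 d. The 26 nt alignment with the same start, chr11:10530805-10530830(-), was even at 2.71, 3.93 and 3.57 in the authors' deposited tables of 13 d. Both lay in a region of 14 zero-ratio alignments, and both were at 0 throughout 31 d.

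At 3 d 569 zero-ratio alignments could be tested, 173 of them below 0, with a median log2 ratio of 0.66 against -0.30 for all 111976 tested. By limma 0 were called lower and 0 higher, 16 had an unadjusted p below 0.05, and 0.321% of all tested were called lower and 2.89% higher. The 2 tables of 3 d thus gave no call, although the median of the 569 lay above that of all tested. All tested were of any length, so they are an unlike background. Against the other alignments the direction was the reverse. Among ratios above 0 at 3 d, the median was 1.23 in replicate 1 and 1.01 in replicate 3, against 1.54 and 1.69 for the others. These medians are per table and take in more than the 569.

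The lowest mean at 3 d was -3.78 for chr21:22488201-22488222(+), with ratios of 0.102 and 0.0520 in the authors' deposited tables (limma SE 1.36, adjusted p = 0.112). The highest was 3.74 for chr11:10530805-10530830(-), with ratios of 35.02 and 5.07 in the authors' deposited tables (limma SE 1.36, adjusted p = 0.119). The next lowest were -3.11 for chr12:41960691-41960709(-), -2.73 for chr16:22159224-22159241(-), -2.63 for chr5:99384579-99384600(-) and -2.54 for chr13:92002992-92003009(+). None of these 4 had a ratio above 1 at 13 d in the tables that list them. The alignment on chromosome 13 had the same end as a fragment at 0 in all 8 tables, chr13:92002984-92003009(+).

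The next highest at 3 d were 3.44 for chr16:16403749-16403773(+), 3.20 for chr12:57132220-57132243(-), 3.15 for chr10:6194169-6194189(+) and 2.95 for chr1:206907454-206907476(+). Most of these were low or at 0 at 13 d. They were picked for high values at 3 d, a choice that by itself favours lower values on another day. The chromosome 16 alignment had ratios of 8.29 and 14.2 at 3 d and of 0, 0.139 and 0 at 13 d in the authors' deposited tables. The chromosome 10 alignment had 12.9 and 6.08 at 3 d and 0.289, 0 and 0 at 13 d in the authors' deposited tables. The chromosome 1 alignment had 4.92 and 12.2 at 3 d and 0, 0.416 and 0 at 13 d in the authors' deposited tables. The exception was the chromosome 12 alignment, at 0.571 and 12.8 in the authors' deposited tables of 13 d, replicates 1 and 2.

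Only 39 zero-ratio alignments were above 0 in all 5 tables of the earlier days, and the difference between the days was tested for these alone. The difference was below 0 for 38 of the 39, with a median of -1.99 on the log2 scale. For all 34539 alignments tested, 54.4% were below 0 and the median was -0.29. These are of any length and so an unlike background. Limma called 1 lower at 13 d than at 3 d and 0 higher, with 6 at an unadjusted p below 0.05. Among all tested, 10.2% were called lower and 0.194% higher. In 8 of the 39 every ratio of 13 d was below 1 and both of 3 d above 1, and in 0 the reverse. The 1 called was chr8:144815255-144815280(-), and it was not called without replicate 1 of 3 d or replicate 2 of 13 d, which left 0.

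**Figure D5:**
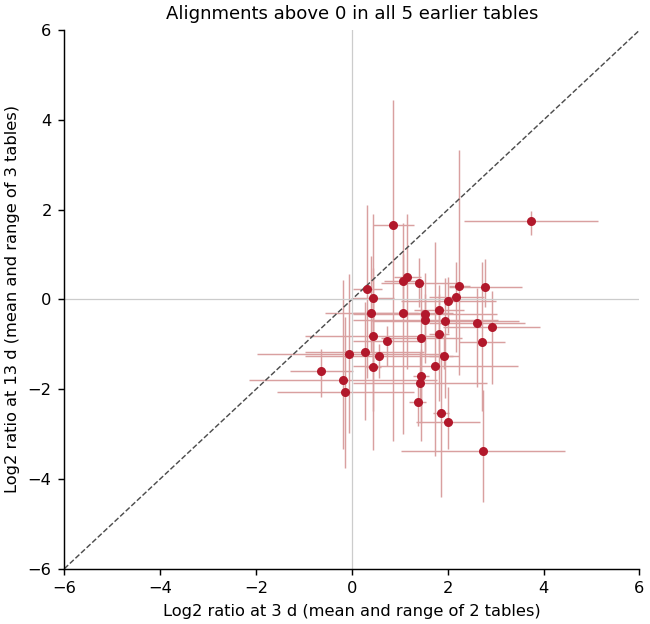
Mean log2 ratio at 3 d (horizontal axis, 2 tables) and at 13 d (vertical axis, 3 tables) of the 39 zero-ratio alignments above 0 in all 5 tables of these days, with bars from the lowest to the highest table. The dashed line marks equal means, and 38 of the 39 points lie below it.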

How the data were processed

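Small RNA was sequenced from 17 libraries of K562 cells, 8 with Dox, 8 with water and 1 untreated. The submitters' processing notes name Bowtie2 2.2.9 and hg19 (GRCh37). The 8 deposited tables have no header. Each gives, per alignment, the ratio (fold) that the authors computed from the scaled values of a pair of libraries. Only positions and this ratio were used, since 32 columns of per-library values name no library. A numerator of 0 was read as a ratio of 0. For reads with several positions, the treatment was not given in the sources used here. Positions are 1-based.

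The zero-ratio alignments, the comparisons and the lists were chosen with earlier results of these data known. A comparison at like denominator reads was intended; the number of other tables that list an alignment took its place after the data, read columns included, had been seen. Shares at 3 d and 13 d were compared per table by exact two-sided sign-flip permutation with Benjamini-Hochberg adjustment over 3 tests. An intended test of left-out tables of 31 d was replaced by description. The deposited ratios were turned into log2 values here, with no pseudocount, and fitted with limma 3.58.1 under R 4.3.3 (a mean per day, robust empirical Bayes, adjustment over all alignments of any length tested that day). Alignments at 0 in a table have no logarithm and were left out of that day. Limma's standard error came from 1 variance common to all alignments, so it does not show the spread of a single one. The shares were computed in Python 3.11.15 with numpy 2.4.6 and pandas 2.3.3 and tried on simulated data first.

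Alignments named are the 5 largest regions and the 5 highest and 5 lowest means at 13 d and at 3 d. Choices by read number, also intended, were not made. Two-arm loci, the neighbours of the chromosome 8 alignment, the fragments at 0 in all tables, the 1 reverse pattern and the difference between days were picked after values were seen. So was the crowded stretch on chromosome 1. A stack holds 3 or more alignments. Alternatives were other length minimums, no weighting, listing and length together, merged regions, centred ratios, days fitted alone, a replicate term and leaving out each table. Replicates are biological per the labels.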

Additional observations from a re-analysis of the deposited data

Results flagged for a closer look

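Differences between days drew attention to 3 of the named zero-ratio alignments. For chr8:144815255-144815280(-) the log2 ratio at 13 d minus that at 3 d was -6.10 (limma SE 1.75, adjusted p = 0.0109), past limma's threshold of 0.05. Its means were -3.37 at 13 d and 2.73 at 3 d. Every ratio of 13 d was below 1 while both of 3 d were above 1.

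The overlapping alignment chr8:144815257-144815279(-) differed by -4.74 (limma SE 1.75, adjusted p = 0.0610). The alignment chr1:218924122-218924142(+) differed by -4.38 (limma SE 1.75, adjusted p = 0.0947), with ratios of 0.0471, 0.24986 and 0.447 at 13 d and 3.23 and 4.05 at 3 d in the authors' deposited tables. Both lay on opposite sides of 1 in every table of the 2 days, and neither difference passed the threshold. The overlapping pair on chromosome 8 is not independent. All 3 were named for their low means at 13 d, a choice that by itself favours a negative difference.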

How the results depend on the processing

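The number of zero-ratio alignments, 20005, was 7405 from 20 nt, 36466 with no length minimum, and 55274 to 87575 when 1 table of 31 d was left out. The difference in the share at 0 kept its direction under all 10 alternatives at 13 d (26.5 to 48.7 points) and all 9 at 3 d (9.49 to 29.98), the highest without weighting in both cases. The exact tests of these shares cannot pass 0.05, so their side of it says nothing about stability. Minimums of 5 and 10 reads, classes of reads, and counting identical read values once were not run, since they need the unused columns; few reads behind a 0 remain an untested limit.

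Zero-ratio alignments called lower at 13 d numbered 4 with ratios centred and 4 with each day alone, and 0 to 4 when 1 table was left out: 0 without any 1 of 13 d or replicate 1 of 31 d, 4 without replicate 2 of 31 d. At 3 d, 0 to 1 were called lower and 0 to 1 higher on leaving out a table, the 1 in each case without replicate 2 of 31 d. The cause was not tested. With a replicate block 0 were called lower at 13 d, with 39 tested in place of 108. Deviations of same-numbered tables of 13 d and 31 d correlated at r = 0.31, -0.52 and -0.47 over 26250 alignments, so the numbers were not taken as pairs. Replicate 3 of 13 d with replicate 2 of 31 d gave r = 0.62, and replicate 2 of 13 d with replicate 3 of 31 d gave r = 0.53. Deviations were taken from the mean of each day's tables, so they sum to 0 within a day. The r values are therefore not independent, and positive ones favour negative ones among the rest. Whether numbers or tables were crossed was not tested, and nothing was exchanged. For the difference between days, 3 were called with ratios centred and 3 without replicate 2 of 31 d.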
